A study of Homo sapiens with 2 samples.

Results

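RNA levels of 10 growth factor signalling genes were compared between 2 forms of SBC5, a human cell line derived from small cell lung cancer. One form is the parental line, and the other had become resistant to cisplatin, which kills cells by crosslinking their DNA. The genes are the receptors MET, EGFR, RET, ROR1 and PDGFRA, the ligands KITLG, FGF5, TGFA and PDGFB, and the phosphatase DUSP6. They were chosen by their FPKM in these same 2 libraries, because each lay past 2-fold between them. Their differences below are therefore a description and were not tested. All rows of the deposited table that carry 1 of the 10 names were kept, 13 loci in all out of 19217. The 10 genes are among 12405 named genes that reached at least 1 FPKM in either library. FPKM counts the fragments of a locus, scaled to its length and to library size. The parental group was 1 library of SBC5 cells that had not been selected. The resistant group was 1 library of SBC5 cells taken through cisplatin at 1, 2, 4 and then 20 µg/ml. Both were grown in medium with 10% fetal bovine serum, and whether drug was present at harvest is not given in the sources used here. With 1 library per group there are no replicates, so no value below has a replicate error or a p-value, and each difference is one between these libraries. Nothing in the labels says whether the resistant line is 1 clone or a pool.

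Receptor tyrosine kinases are membrane proteins that bind a growth factor outside the cell and phosphorylate tyrosines inside it. MET binds hepatocyte growth factor, EGFR binds the EGF family that includes TGFA, and RET binds GDNF-family ligands together with a coreceptor. PDGFRA binds platelet-derived growth factors and ROR1 is a receptor for the Wnt ligand WNT5A. KITLG is the ligand of the receptor KIT, which is known in small cell lung cancer, and FGF5 is a fibroblast growth factor. Such receptors feed the RAS and ERK kinase cascade, and ERK activity induces DUSP6, which removes phosphate from ERK. MET and EGFR are drug targets in other lung cancers.

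RefSeq promoter windows on GRCh38.p14, the build of which hg38 is another name, were matched by symbol for 9 of the 10 genes, giving 14 windows. A set of 6 letter patterns was searched on both strands in the 250 bases before each RefSeq start. They were the GC box GGGCGG, the TATA box TATAAA, the AP-1 site TGANTCA, the ETS core CCGGAA, the cyclic AMP element TGACGTCA and the E-box CAGGTG, a pattern bound by ZEB repressors. The windows of 3 genes that were higher in resistant cells and of 3 that were lower are shown, to set the promoters of the opposite groups side by side. They are written 5′ to 3′ along the gene's strand, with capitals for matched patterns. EGFR is at chr7:55018767-55019016 and RET at chr10:43076819-43077068, both on the plus strand, and TGFA is at chr2:70553827-70554076 on the minus strand. MET is at chr7:116671946-116672195 and PDGFRA at chr4:54229043-54229292 on the plus strand, and DUSP6 is at chr12:89352502-89352751 on the minus strand. RefSeq starts differ from those of the GENCODE 29 gene spans given below. By those spans, the windows of DUSP6 and TGFA lie inside the gene, and those of PDGFRA and RET in part.
EGFR: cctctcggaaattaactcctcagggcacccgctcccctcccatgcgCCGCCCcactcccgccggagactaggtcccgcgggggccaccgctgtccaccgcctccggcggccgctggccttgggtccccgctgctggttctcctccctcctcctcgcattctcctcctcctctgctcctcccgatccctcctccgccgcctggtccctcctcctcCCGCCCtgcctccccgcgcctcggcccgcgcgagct
RET: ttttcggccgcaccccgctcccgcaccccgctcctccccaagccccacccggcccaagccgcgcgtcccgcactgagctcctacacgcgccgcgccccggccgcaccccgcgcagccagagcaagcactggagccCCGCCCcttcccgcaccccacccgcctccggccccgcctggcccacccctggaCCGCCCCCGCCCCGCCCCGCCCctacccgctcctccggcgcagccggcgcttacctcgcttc
TGFA: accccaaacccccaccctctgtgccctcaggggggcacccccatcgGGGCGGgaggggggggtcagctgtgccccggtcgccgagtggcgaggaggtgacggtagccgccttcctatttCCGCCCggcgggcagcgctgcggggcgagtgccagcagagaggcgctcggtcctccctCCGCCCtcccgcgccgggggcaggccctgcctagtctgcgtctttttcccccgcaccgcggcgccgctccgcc
MET: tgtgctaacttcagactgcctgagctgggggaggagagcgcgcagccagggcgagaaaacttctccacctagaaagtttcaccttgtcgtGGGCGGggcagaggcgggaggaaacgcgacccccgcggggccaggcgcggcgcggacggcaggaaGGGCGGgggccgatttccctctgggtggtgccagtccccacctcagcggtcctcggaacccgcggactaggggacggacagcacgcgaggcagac
PDGFRA: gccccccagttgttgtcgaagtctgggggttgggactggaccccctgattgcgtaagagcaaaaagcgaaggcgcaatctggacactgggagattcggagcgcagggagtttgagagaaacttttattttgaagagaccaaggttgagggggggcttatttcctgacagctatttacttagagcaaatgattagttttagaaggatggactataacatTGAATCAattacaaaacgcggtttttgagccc
DUSP6: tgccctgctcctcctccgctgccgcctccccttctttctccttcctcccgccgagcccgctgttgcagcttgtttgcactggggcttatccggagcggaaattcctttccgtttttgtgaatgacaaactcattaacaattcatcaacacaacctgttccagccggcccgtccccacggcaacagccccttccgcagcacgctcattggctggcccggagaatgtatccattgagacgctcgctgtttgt
The capitals in EGFR, RET, TGFA and MET are GC boxes, read on either strand. The window of RET held 5, some overlapping, that of TGFA held 3, and those of EGFR and MET held 2 each. The capitals in this PDGFRA window are 1 AP-1 pattern, and the DUSP6 window held no searched pattern. Over all 14 windows, 8 held a GC box, against 42.6% of the 35116 windows in the RefSeq table. The TATA pattern was in 3 of 14 against 10.7%, the AP-1 pattern in 2 against 6.57%, the ETS core in 2 against 14.5% and the E-box in 2 against 17.5%. The cyclic AMP element was in none of the 14, against 1.65% of all windows. GC content was 73.6% for EGFR, 79.6% for RET, 75.6% for TGFA and 68.4% for MET, and 46.8% for PDGFRA and 57.2% for DUSP6, against a median of 58% (quartiles 46.4% and 68%). The first windows of the lower genes not shown, KITLG, ROR1 and FGF5, had 69.2%, 69.2% and 68.8% GC, near that of MET. That of KITLG held 2 GC boxes, that of FGF5 held 1 and that of ROR1 held none. High GC thus occurred in both groups. EGFR, RET, TGFA, PDGFRA and FGF5 each have a second window. That of EGFR (38.8% GC) held TATA and AP-1 patterns and no GC box, and that of RET (58% GC) held 1 GC box and 1 E-box. That of TGFA (64% GC) held an ETS core and an E-box and no GC box, and that of PDGFRA (64% GC) held 2 GC boxes. That of FGF5 (47.2% GC) held TATA patterns and no GC box. The table of FPKM does not say which start was used, and a match is a description of letters only.

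By a fixed limit of 2-fold, taken as a log2 ratio (resistant over parental) of 1 in either direction on log2(FPKM + 1), 4 of the 10 genes were higher in resistant cells and 6 were lower. In all, 3.28% of the genes compared were 2-fold higher and 2.70% were 2-fold lower. Since the limit chose the genes, their count says nothing beyond that choice. RET, FGF5, TGFA and PDGFB reached 1 FPKM in only 1 library, so any such gene that was compared had to differ. The other 6 reached it in both.

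**Figure D1:**
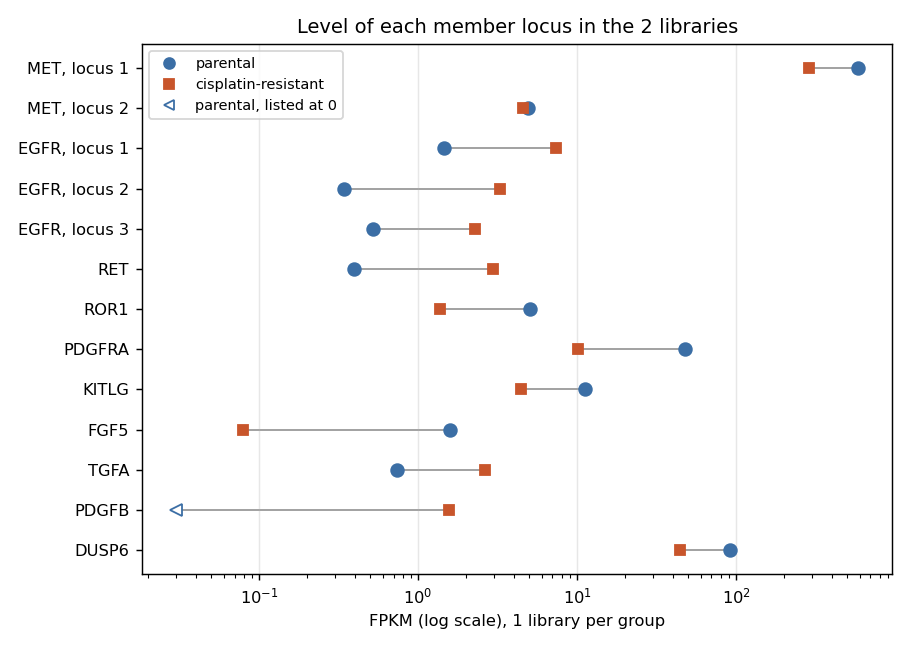
FPKM of the 13 member loci in the parental (circles) and cisplatin-resistant (squares) library, on a log axis, with 1 library per group and hence no error bars. All 3 EGFR loci lie to the right in resistant cells, from 1.45 to 7.35 FPKM in the first, and MET lies at 589 and 288 FPKM. The triangle marks PDGFB, listed at 0 in parental cells and set at the left edge.

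MET was the most abundant of the 32 listed receptor tyrosine kinases that could be compared, in both libraries. Each value here is a mean over all cells of a culture, so fewer cells with the RNA and less RNA per cell cannot be told apart. It stood at 589 FPKM in the parental library and at 288 FPKM in the resistant one, which is 2.04-fold lower (log2 ratio -1.03). It ranked 142 of 12405 genes by parental level and 279 by resistant level. The MET gene spans 116672390 to 116798386 of chromosome 7, plus strand. A further MET locus, without an assigned strand, stood at 4.91 and 4.54 FPKM and was nearly level. That locus holds a small part of the MET signal, and summing both loci gave a log2 ratio of -1.02. Among genes of like level, the central 95% of log2 ratios ran from -0.71 to 0.69, and MET lay below that range. The lower bound is within 2-fold, so any gene of this level chosen as 2-fold lower had to lie below it.

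PDGFRA had the lowest log2 ratio of the 10 genes. The parental library held 48.0 FPKM of it and the resistant one 10.1 FPKM, 4.75-fold lower (log2 ratio -2.14) and rank 48 from the lowest of the 12405 genes. It is on the plus strand of chromosome 4 between 54229097 and 54298247. PDGFRA ranked 5 of 32 receptor tyrosine kinases by parental level and 17 by resistant level. Genes of like level ran from -0.91 to 0.81.

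ROR1, on chromosome 1 from 63774022 to 64181498, had a parental level of 5.08 FPKM and a resistant level of 1.38 FPKM. The difference was 3.68-fold (log2 ratio -1.35), inside the range of -1.55 to 1.89 for genes of like level. ROR1 moved from place 23 among the 32 receptor kinases to the last place.

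EGFR, on chromosome 7 from 55019021 to 55211628, was low in parental cells and higher in resistant cells at each of its 3 loci. Its strand-assigned locus was at 1.45 and 7.35 FPKM, 5.05-fold higher (log2 ratio 1.77), above the range of -1.39 to 1.52 for genes of like level. The other 2 loci have no assigned strand. One was at 0.341 and 3.29 FPKM (9.63-fold, log2 ratio 1.68), and the other at 0.519 and 2.29 FPKM (4.43-fold, log2 ratio 1.12). These loci carry 1 gene name and 2 libraries, so they are not replicates. By this first locus EGFR stood at place 27 of the 32 receptor kinases in parental cells and at place 24 in resistant cells. With all loci of each name summed, EGFR had 2.31 and 12.9 FPKM and places 28 and 14. FPKM is scaled to the length of each locus, so this sum and its places are only rough.

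RET was the lowest of the 32 receptor kinases in parental cells, at 0.393 FPKM. It was at 2.96 FPKM in resistant cells, 7.53-fold higher, with a log2 ratio of 1.51 inside the like-level range of -1.28 to 1.64. It lies on chromosome 10 from 43077027 to 43130351.

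The balance of receptor RNA thus differed between the libraries, and FPKM, being per length, allows levels of different genes to be compared. MET was 405 times the level of EGFR in parental cells and 39.2 times in resistant cells. PDGFRA was 33.0 times the level of EGFR in parental cells and 1.37 times in resistant cells. These ratios use the highest locus of each name. With loci summed, MET was 256 and 22.6 times the level of EGFR, and PDGFRA was 20.7 times and then 0.781 times. Such a sum is only a rough level, as FPKM is scaled to the length of each locus. The order of EGFR and PDGFRA in resistant cells thus depends on the loci used. MET made up 52.3% of the summed FPKM of the 32 receptor kinases in the parental library and 36.5% in the resistant one. That sum was 1127 FPKM and 789 FPKM. Without the 5 member receptors it was 483 and 479 FPKM, so the net drop in the sum was about that of MET and PDGFRA. Of the 27 other receptors, 14 had ratios above 0 and 13 below. IGF1R, at 86.5 and 51.9 FPKM, and PTK7, at 65.9 and 79.3 FPKM, went opposite ways. The members were chosen for being past 2-fold, so a near-level remainder follows in part from that choice.

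Of the ligands, KITLG was the most abundant of the 4. Its parental value of 11.3 FPKM stood against 4.41 FPKM after selection, 2.56-fold lower (log2 ratio -1.18), at the edge of the like-level range, whose lower bound rounds to the same value. KITLG is encoded on chromosome 12, minus strand, from 88492793 to 88580851. FGF5 (chromosome 4, 80266599 to 80336680) was at 1.59 and 0.0790 FPKM, 20.1-fold lower, and its log2 ratio of -1.26 lay inside the like-level range of -1.28 to 1.64. The log2 ratio is small beside the fold because 1 is added to both values, and adding 0.1 gave -3.24.

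TGFA, a ligand of EGFR, was higher together with its receptor. Its values were 0.739 FPKM before and 2.64 FPKM after selection, a 3.57-fold difference (log2 ratio 1.06). The TGFA gene spans 70447280 to 70554193 of chromosome 2, minus strand. EGFR was 1.97 times the level of TGFA in parental and 2.79 times in resistant cells, or 3.13 and 4.91 times with the EGFR loci summed. PDGFB (chromosome 22, 39223359 to 39244751), a chain of platelet-derived growth factor, was listed at 0 in parental cells and at 1.57 FPKM in resistant cells, so it has no fold. Its log2 ratio of 1.36 depends on the pseudocount and was 4.07 with 0.1. TGFA and PDGFB both lay inside the like-level range. PDGFB was thus higher and its receptor PDGFRA lower in the same library.

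**Figure D2:**
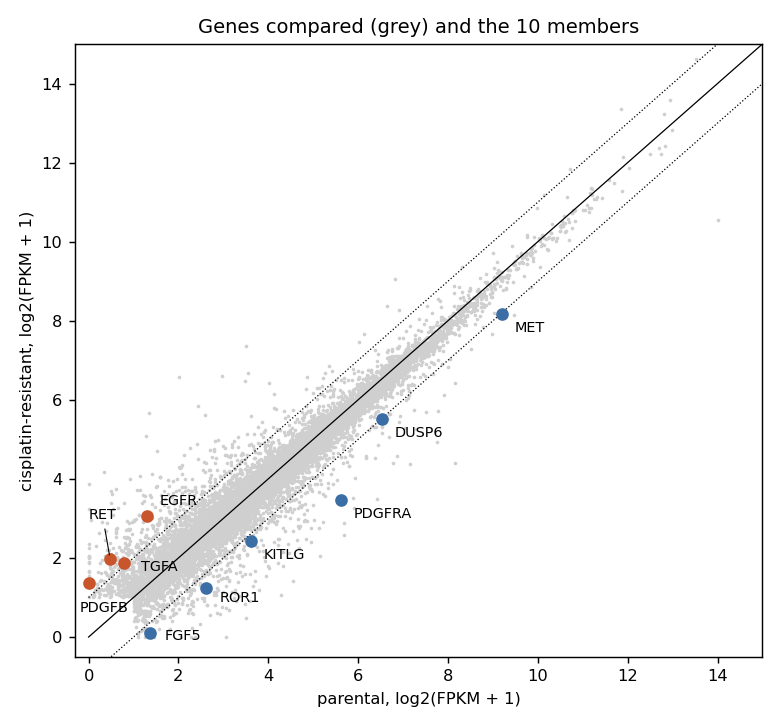
Level of 12405 genes in the parental (horizontal) and resistant (vertical) library, each as log2(FPKM + 1), with the 10 members in colour, lines of equal level (solid) and of 2-fold difference (dotted). MET and DUSP6 lie on the 2-fold line among abundant genes that spread little, and RET, TGFA, PDGFB and FGF5 lie among the lowest genes, where the spread is widest.

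DUSP6 had 91.2 FPKM in the parental library against 44.5 FPKM in the other, 2.05-fold lower (log2 ratio -1.02), below the like-level range of -0.73 to 0.48. Its gene is on chromosome 12, minus strand, from 89347232 to 89353271. MET was 6.45 times the level of DUSP6 in parental and 6.47 times in resistant cells, so the 2 genes differed by nearly the same fold. Of the 10 members, MET, EGFR, PDGFRA, KITLG and DUSP6 lay outside the range of genes of like level and the other 5 lay inside it. The lower bounds around MET, PDGFRA and DUSP6 are within 2-fold, so these genes, chosen as 2-fold lower, had to fall outside. For them the range adds nothing beyond the choice, and KITLG passed its bound only narrowly (-1.184 against -1.179).

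Of 39 other genes listed here as following ERK activity, 36 were compared, and 1 was 2-fold higher and none 2-fold lower. Their median log2 ratio was -0.09, against -0.04 over all genes, with 13 above 0 and 23 below, where 55.6% of all genes compared lay below 0. JUN, a subunit of AP-1, was the gene past the limit, at 5.52 and 13.0 FPKM (log2 ratio 1.11). The ETS factors that ERK signalling induces were lower within 2-fold, with ETV5 at 17.6 and 10.9 FPKM (-0.64) and ETV4 at 46.7 and 35.3 FPKM (-0.39). EGR1, an immediate early factor, stood at 150 and 81.6 FPKM (-0.87), and PHLDA1, low in both libraries, at 2.21 and 0.704 FPKM (-0.91). Among the 13 above 0 were genes higher by a similar size. ID1 was at 38.8 and 74.0 FPKM (0.92), KLF6 at 19.5 and 35.7 FPKM (0.84) and PLAUR at 4.88 and 8.79 FPKM (0.74). The feedback inhibitor SPRY2 was at 9.50 and 6.84 FPKM (-0.42), while SPRY4 was at 8.44 and 8.90 FPKM (0.07). The most abundant of these genes, HMGA1, a chromatin protein, was at 918 and 858 FPKM (-0.10), and ID3 was at 162 and 189 FPKM (0.23). The kinase MAPK3 (ERK1) was at 64.7 and 51.8 FPKM (-0.32).

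The remaining receptor tyrosine kinases set the 5 members in context. Of 58 listed receptors, 32 were compared, with 5 higher and 3 lower by 2-fold. The 3 lower ones were MET, ROR1 and PDGFRA, all members. Among the 27 that are no members, 3 (11.1%) were higher, 0 were lower and the median log2 ratio was 0.13. All 3 were ephrin receptors: EPHA1 at 1.28 and 9.47 FPKM (2.20), EPHA5 at 0.859 and 4.71 FPKM (1.62) and EPHB3 at 0.913 and 3.57 FPKM (1.26). EPHA5 was represented by a locus with no assigned strand, and its strand-assigned locus was at 1.02 and 4.47 FPKM (1.44). EPHA7, at 3.33 and 7.59 FPKM (0.99), came nearest to 2-fold among the receptors that did not reach it, and MET (-1.03) among those that passed it. After MET, the most abundant receptors were IGF1R, at 86.5 and 51.9 FPKM (-0.73), and PTK7, at 65.9 and 79.3 FPKM (0.26).

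Of 74 listed ligands of such receptors, 35 were compared, with 4 higher and 6 lower. Among the 31 that are no members, 2 (6.45%) were higher, 4 (12.9%) lower and the median was -0.07. The higher ones were ARTN, which signals through RET, at 1.95 and 6.49 FPKM (1.34) in a locus with no assigned strand, and the neurotrophin NTF4 at 1.16 and 3.40 FPKM (1.03). The lower ones were FLT3LG (8.08 and 1.19 FPKM, -2.05), EFNA5 (9.82 and 3.68 FPKM, -1.21), CSF1 (3.59 and 1.25 FPKM, -1.03) and ANGPT1 (3.71 and 1.35 FPKM, just past the limit). The most abundant ligands lay within the limit, with the heparin-binding factor MDK at 186 and 169 FPKM (-0.14) and NRG1 at 68.0 and 59.6 FPKM (-0.19).

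**Figure D3:**
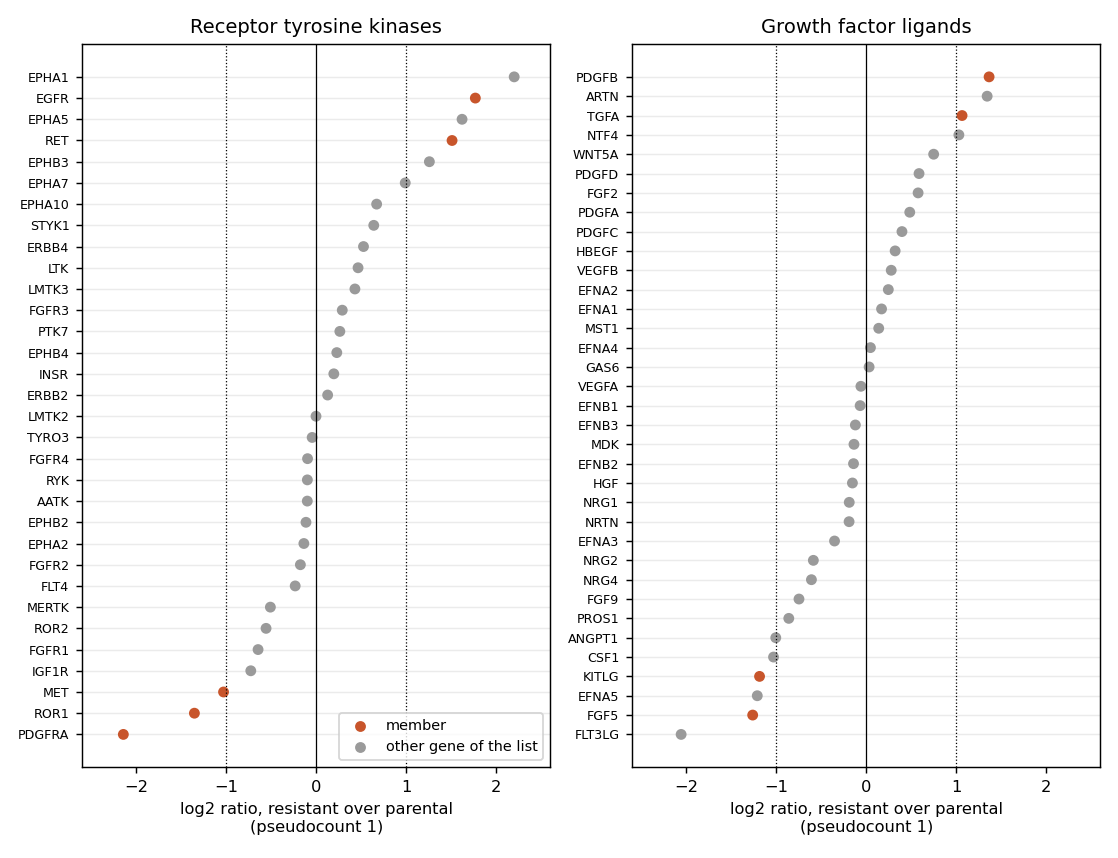
Log2 ratio of the 32 receptor tyrosine kinases (left) and 35 ligands (right) that were compared, sorted, with members in colour and dotted lines at 2-fold. The receptors at the low end are PDGFRA (-2.14), ROR1 (-1.35) and MET (-1.03), and the next, IGF1R, is at -0.73.

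The direct partners of each member were then read, from a list of 50 genes of which 32 were compared. HGF, the ligand of MET, was abundant and nearly level, at 171 and 154 FPKM (log2 ratio -0.15), and was the ligand of second rank in both libraries. SPINT2, which inhibits the proteases that activate HGF, was at 66.4 and 103 FPKM (0.62). Of genes around EGFR, its partners ERBB2 (33.2 and 36.4 FPKM, 0.13) and ERBB4 (10.6 and 15.6 FPKM, 0.52) lay within 2-fold. The ligand HBEGF was at 3.37 and 4.46 FPKM (0.32). ADAM17, the protease that releases TGFA, was at 35.7 and 30.5 FPKM (-0.22), and its cofactors RHBDF1 and RHBDF2 had log2 ratios of 0.41 and -0.15. ERRFI1, a feedback inhibitor that binds the EGFR kinase, was 2-fold lower, at 17.5 and 7.37 FPKM (-1.14). LRIG1, another inhibitor of EGFR, was at 6.19 and 10.7 FPKM (0.71), and the ubiquitin ligase CBL was at 12.2 and 10.6 FPKM (-0.19).

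For RET, the ligand NRTN was at 8.56 and 7.37 FPKM (-0.19), and ARTN is given above. GFRA1 to GFRA4, the coreceptors through which RET binds these ligands, were not analysed here, nor was GDNF. For ROR1, the ligand WNT5A was at 7.12 and 12.6 FPKM (0.75) and the related receptor ROR2 at 13.3 and 8.70 FPKM (-0.56). For PDGFRA, the ligand PDGFC was by far the most abundant, at 48.8 and 64.6 FPKM (0.40), with PDGFA at 5.80 and 8.51 FPKM (0.48). PDGFD, a ligand of the related receptor PDGFRB, was at 0.417 and 1.13 FPKM (0.59). FURIN, a protease that cuts growth factor precursors, was at 38.1 and 28.4 FPKM (-0.41). PDGFA, PDGFB, PDGFC and PDGFD thus all had ratios above 0, and PDGFB alone of these 4 passed 2-fold. PDGFRB, and KIT as the receptor of KITLG, were not analysed here. Of receptors for fibroblast growth factors, FGFR1 was at 40.7 and 25.7 FPKM (-0.65), and FGFR2 to FGFR4 had log2 ratios from -0.18 to 0.29. CAV1, the caveolar scaffold protein that binds several of these receptors, was at 38.9 and 13.8 FPKM (-1.43), and its gene lies near MET.

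The other lists covered the machinery around the receptors. Of 22 compared partners and processing enzymes, 4 were higher and 1, CAV1, was lower (18.2% and 4.55%, median log2 ratio 0.09). The higher ones were the semaphorin receptor PLXNB1, which associates with MET, the integrin chain ITGB4 (2.51 and 6.52 FPKM, 1.10), the proteoglycan SDC2 (0.911 and 3.55 FPKM, 1.25) and the mucin MUC1 (2.81 and 8.47 FPKM, 1.31). PLXNB1 was at 2.38 and 8.69 FPKM (1.52) in a locus of no strand and at 2.71 and 5.92 FPKM (0.90) in its strand-assigned one. The most abundant were ADAM9 (138 and 96.2 FPKM, -0.52) and CD151 (117 and 136 FPKM, 0.21).

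Of 34 negative regulators other than DUSP6, 3 were higher and 1, ERRFI1, was lower (8.82% and 2.94%, median 0.00). The higher ones were the phosphatase PTPRG (3.93 and 9.32 FPKM, 1.06), the adaptor GRB14 (0.866 and 4.07 FPKM, 1.44) and the ubiquitin ligase CBLB. CBLB was at 0.383 and 4.20 FPKM (1.91) in a locus of no strand and at 1.21 and 2.56 FPKM (0.69) in the strand-assigned one. The most abundant were PTPN12 (123 and 97.8 FPKM, -0.33) and NF1 (57.3 and 51.9 FPKM, -0.14).

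Of 40 adaptors and lipid kinases, 6 were higher and 1 was lower (15% and 2.5%, median 0.08). IRS2, an adaptor of the insulin and IGF1 receptors, was lower at 56.8 and 26.0 FPKM (-1.10). The higher ones were low in parental cells apart from CRKL: GAB2 (0.866 and 3.39 FPKM, 1.23), SHC2 (0.785 and 3.91 FPKM, 1.46), DOK3 (0.839 and 4.03 FPKM, 1.45), VAV3 (0.282 and 2.11 FPKM, 1.28) and EPS8 (2.86 and 7.84 FPKM, 1.20). CRKL was at 41.8 and 104 FPKM (1.30) in a locus of no strand, and at 24.0 and 22.3 FPKM (-0.10) in its strand-assigned locus. SHC2 was at 1.89 and 2.48 FPKM (0.27) in its strand-assigned locus, so both of these were level there. The kinase YES1 (153 and 142 FPKM, -0.11) and the adaptor SHC1 (113 and 98.1 FPKM, -0.21) were the most abundant. Over all genes, 3.28% were higher and 2.70% lower. The lists were chosen with earlier results of these data known, so a larger share in a list cannot be read as an excess. Many of their higher genes were also low in parental cells, where ratios spread most. With strand-assigned loci, 3 partners, 2 negative regulators and 4 adaptors were higher.

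Neighbouring genes were read next, by a rule added after the first values were seen: the 10 compared genes on either side of each member, in the gene order of GENCODE 29. The 2 genes before MET were lower too. LINC01510, a noncoding RNA gene between CAV1 and MET, was at 20.0 and 8.14 FPKM (-1.20), and CAV1 as above (-1.43). TES, the next gene, was at 8.86 and 14.9 FPKM (0.69), and CAPZA2, the first gene after MET, at 66.5 and 54.9 FPKM (-0.27). The median of the 20 neighbours was -0.04, and MET, CAV1 and LINC01510 were the only genes of this stretch past the limit. GSX2, a homeobox gene and the nearest gene before PDGFRA, was at 31.3 and 6.81 FPKM (-2.05), close to PDGFRA itself (-2.14). CHIC2 beyond it was at 18.3 and 12.5 FPKM (-0.51), and the other neighbours of PDGFRA lay between -0.38 and 0.80, with a median of -0.03 over all 20.

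KITLG and DUSP6 are next to each other in this order, 772 kb between their starts, and both were lower. Of the 20 neighbours of KITLG, DUSP6 included, 16 lay below 0, and the median was -0.24. Over all genes compared 55.6% lay below 0, and around ROR1 and PDGFB the counts were 16 and 19 of 20. The nearest 3 genes beyond DUSP6, ATP2B1, BTG1 and EEA1, had ratios of -0.46, -0.47 and -0.48. On the other side of KITLG, the nearest 3, TMTC3, CEP290 and C12orf29, had ratios of -0.05, -0.05 and -0.11. Of the 20 neighbours of KITLG, 3 were 2-fold lower, namely DUSP6, MKRN9P (-1.69) and LIN7A (-1.65). The 2 that were 2-fold higher were TMTC2 (1.33) and NTS. The neuropeptide gene NTS, 5 places before KITLG, stood at 1.41 and 33.0 FPKM (3.82). Around EGFR, the adjacent SEC61G (194 and 230 FPKM, 0.24) and LANCL2 (6.10 and 8.84 FPKM, 0.47) lay within 2-fold, and the median of 20 was 0.06. LINC01446, 2 places before EGFR, was listed at 0 and at 3.04 FPKM, and IKZF1, a transcription factor of blood cells, was at 5.73 and 22.3 FPKM (1.79). The medians around RET, TGFA, PDGFB, ROR1 and FGF5 were -0.04, -0.08, -0.19, -0.18 and 0.06, and no gene adjacent to these 5 passed 2-fold.

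**Figure D4:**
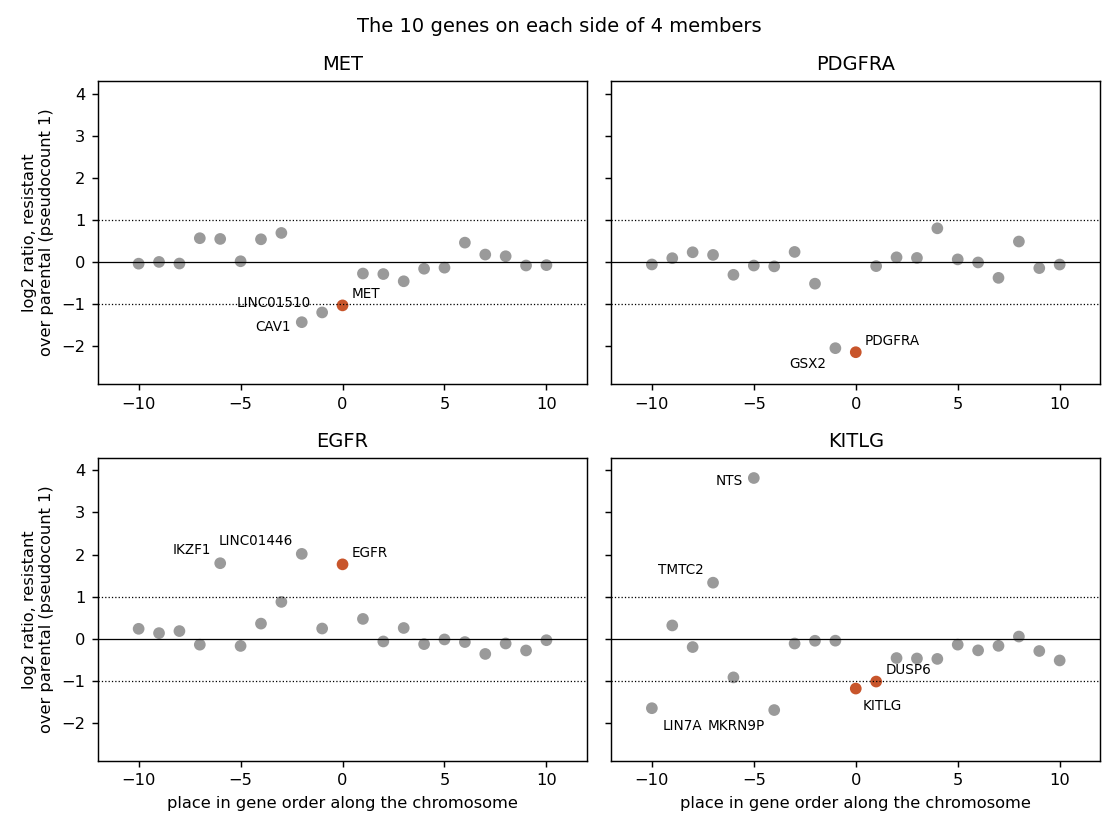
Log2 ratio of the 10 genes on each side of MET, PDGFRA, EGFR and KITLG in gene order (0 is the member), with members in colour and genes past 2-fold named. CAV1 and LINC01510 lie beside MET at -1.43 and -1.20, and GSX2 beside PDGFRA at -2.05, while the other neighbours of these 2 lie within 2-fold.

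The nearest genes in level were sought for 3 receptors, as the smallest distance in log2(FPKM + 1) over the 2 libraries, which only says that the 2 values are alike. For EGFR they were CXCR4 (1.64 and 7.07 FPKM), the phosphatase gene DUSP10 (1.55 and 6.73 FPKM) and MCOLN3 (1.32 and 6.55 FPKM). For RET they were P2RX2, GRID2IP and PIP5KL1, all under 0.5 FPKM in parental cells. For MET they were MYH13 (521 and 293 FPKM), POTEH (707 and 282 FPKM) and INTS7 (481 and 348 FPKM).

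The number of fragments behind these values is unknown, since the table holds no counts, but the ratio of 2 values gives a hint. Among 7591 loci below 5 FPKM in both libraries, 52.9% had a ratio that equalled 0.996 times a ratio of whole numbers up to 20, within a relative 2e-05. With 20 wrong factors in place of 0.996 the mean share was 0.410%. The smallest such pair was 20 to 1 for FGF5, parental first, and 11 to 3 for ROR1. For the second EGFR locus it was 3 to 29, and for the second MET locus 14 to 13. The pairs hint at few fragments behind these values, but the counts may be multiples of them and a match can arise by chance. Were the pairs the counts themselves, a 95% interval for counting alone can be set on the parental over resistant fold. For ROR1 it would run from 0.972 to 20.5, which includes no difference, and for FGF5 from 3.21 to 832. The counts of ROR1 may well be larger than its pair. In resistant cells TGFA, at 2.64 FPKM, had 68 in its pair, against 3 for ROR1 at 1.38 FPKM. Locus lengths, which also set FPKM, are not known here, so the ROR1 interval may be too wide and no conclusion is drawn from it. With whole numbers up to 40, as the EGFR pair needs, wrong factors matched 1.35% of loci, and with numbers up to 70, as the pair of 19 to 68 for TGFA needs, 4.80%. No pair up to 100 was found for the main loci of MET, EGFR, RET, PDGFRA, KITLG or DUSP6.

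Facts of the whole table bear on these values as follows. All FPKM summed to 1019555 for parental cells and to 1081047 for resistant cells, and the median log2 ratio over all genes was -0.04. Of 10 fixed markers of small cell lung cancer and its subtypes, 4 were in the table and summed to 337 and 354 FPKM, led by UCHL1 and YAP1, with SYP at 8.56 and 8.62 FPKM. The other 6, INSM1 and CHGA among them, were not analysed here, so the label was not checked against them. Of markers of other cells, 2 of 6 fibroblast genes summed to 26.3 and 23.1 FPKM, 1 of 5 blood genes (HBB) was at 2.69 and 0.472 FPKM, and the 4 endothelial genes were not analysed here. The 2 of 4 epithelial markers in the table, CDH1 and KRT8, summed to 2.63 and 7.17 FPKM. CDH1 was at 0.536 and 4.81 FPKM, higher in resistant cells along with EGFR, and KRT8 was at 2.09 and 2.36 FPKM; their part in the result was not tested.

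**Figure D5:**
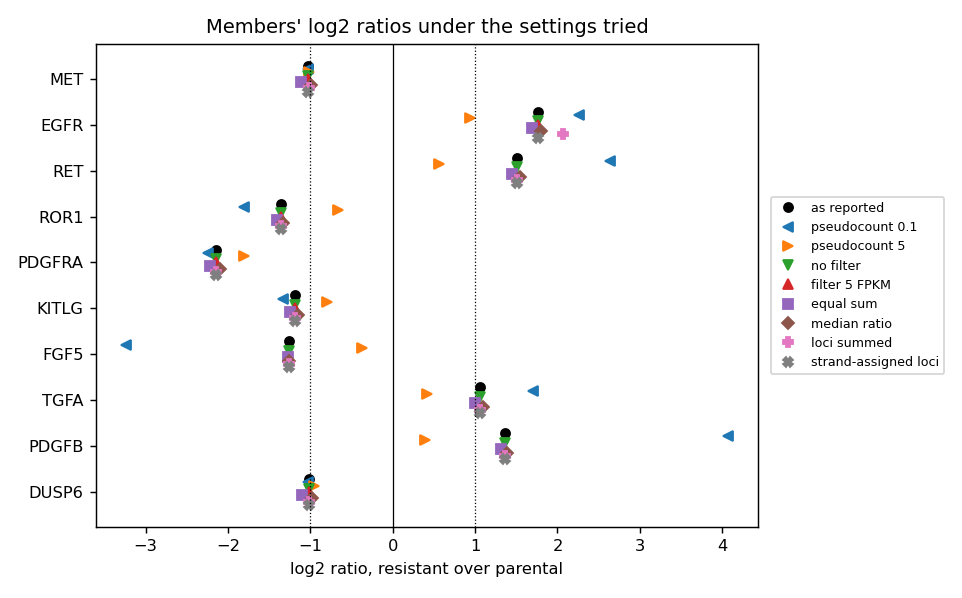
Log2 ratio of each member under the reported setting (black) and 8 alternatives, with dotted lines at 2-fold. Each member keeps its sign in every setting drawn, PDGFRA stays past 2-fold in all of them, and a pseudocount of 5 (right-pointing triangles) brings 8 of the 10 within 2-fold. RET, FGF5, TGFA and PDGFB have no value under the filter of 5 FPKM.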

How the data were processed

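Poly(A) RNA of 1 parental and 1 cisplatin-resistant SBC5 culture was made into TruSeq Stranded libraries, per the labels' protocols. The authors deposited FPKM per locus, per the file headers. Alignment tools and build are listed as TopHat2 and hg38, per the submitters' processing notes. Which program computed FPKM, and with which annotation, is not given in the sources used here. Each FPKM column carries the description of 1 library, and 0 columns stayed unmatched. Depth per library is unknown.

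Of 19217 loci, 2919 without a name and 23 named by a date were left out. The locus of highest mean FPKM stood for each of 12494 names, and 12405 genes reached 1 FPKM in either library. A log2 ratio is the resistant minus the parental log2(FPKM + 1). In place of a test stood a limit of 2-fold. The like-level range is the 2.5th to 97.5th percentile in 20 bins of mean level. Strands were inferred from the order of the loci together with the annotated strands: 98.7% of 11746 loci placed on a strand and annotated lay on it. Since the annotation helped to place them, that share is no independent check. Strand-preserving libraries do not show how the authors counted, so antisense reads cannot be set apart with certainty. Positions are those of GENCODE 29, and promoters are RefSeq's.

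The members, and the 7 gene lists, were chosen with earlier results of these data known. The text names all 10 members, all compared direct partners but 1 that is not reported here, and in other lists the genes past 2-fold and the 3 of highest mean FPKM; neighbours, promoter patterns and list genes given besides, were added after values were seen. Alternatives were a pseudocount of 0.1 or 5, a filter of 5 FPKM or none, an equal sum, the median ratio, summed loci, strand-assigned loci and a 4-fold limit. The scripts were tested on simulated data. Software was SciPy 1.17.1, NumPy 2.4.6 and pandas 2.3.3 under Python 3.11.15, with figures from matplotlib 3.10.9.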

Additional observations from a re-analysis of the deposited data

How the results depend on the processing

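No paired analysis was possible because each group has 1 library. Of the members' 76 log2 ratios under alternatives, 34 equal the reported value, since the filters and most choices of locus cannot move it. The other 42 kept their sign, and 32 of them stayed past 2-fold. A pseudocount of 5 brought within 2-fold EGFR (0.94), RET (0.56), ROR1 (-0.66), KITLG (-0.79), FGF5 (-0.37), TGFA (0.41), PDGFB (0.39) and DUSP6 (-0.96), and division by the median ratio did so for MET (-0.99) and DUSP6 (-0.98). A larger pseudocount shrinks the ratios of low values by construction; for the median ratio, whose scale factor is 1.03, MET and DUSP6 lay close to the limit. RET, FGF5, TGFA and PDGFB do not reach a filter of 5 FPKM and have no value there.

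Over all genes, 407 were 2-fold higher and 335 lower. The counts became 614 higher with a pseudocount of 0.1, and with 5 they were 142 and 136. A 4-fold limit gave 76 and 60. Of the members, a pseudocount of 5 left 0 higher and 2 lower, a 4-fold limit 0 and 1, and the 5 FPKM filter 1 higher. For the receptor list these gave 1 higher (pseudocount 5), 1 higher and 1 lower (4-fold) and 2 higher (filter). For the ligands they gave 0 higher and 1 lower, 0 and 1, and 1 and 3. With a pseudocount of 5, and with the 4-fold limit, 0 partners were higher, and with the 4-fold limit 0 were lower. Negative regulators and ERK output genes had 0 higher and 0 lower under both settings. Adaptors had 1 higher and 0 lower with a pseudocount of 5, and 0 and 0 at 4-fold. The filter left 1 higher regulator and 2 higher adaptors. The median ratio left 1 lower regulator and 0 lower ERK output genes, and a pseudocount of 0.1 gave 3 higher and 2 lower ERK output genes. List medians near 0 turned sign: receptors with the filter (-0.0241) and the equal sum (-0.0191), partners with the filter (-0.0283) and strand-assigned loci (-0.0231), regulators with the median ratio (0.0391) and adaptors with the equal sum (-0.0012). Low FPKM, with unknown fragment numbers, limits RET, FGF5, TGFA, PDGFB and ROR1.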
